A study of Mus musculus with 6 samples.

Results

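The Hox cluster genes of cultured mouse lung cells, selected as endothelial, were described across the knockout and wild-type libraries of the study. Members were all rows of the deposited expression table whose symbol is Hoxa, Hoxb, Hoxc or Hoxd followed by a number alone, which leaves out antisense and host genes. The rule uses names only, and it found 39 genes among the 53735 in the table. They comprise 11 genes of HoxA on chromosome 6, 10 of HoxB on chromosome 11, 9 of HoxC on chromosome 15 and 9 of HoxD on chromosome 2.

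The study sequenced poly(A)-selected RNA from 4 libraries labelled Zmpste24 knockout (KO1 to KO4) and 2 labelled wild type (WT1 and WT2). Zmpste24 encodes the metalloprotease that processes prelamin A. Cells of both genotypes were selected from lung on CD31 and ICAM2 beads and kept as an untreated, unpassaged primary culture until confluent. The labels give neither the age, sex or strain of the mice nor which stretch of Zmpste24 was deleted, and they do not tie libraries to single animals. The p-values therefore cover the spread between libraries alone, part of which may be technical.

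Hox proteins are homeodomain transcription factors that bind DNA together with Pbx and Meis cofactors. Within a cluster, the genes lie in the order of their numbers, and in the embryo the low-numbered genes are active earlier and further towards the head than the high-numbered ones. Adult cells keep much of this combination, which is why it serves as a record of the body level from which fibroblasts or vessel cells came, and in the lung the anterior and middle genes of HoxA and HoxB are the ones best known from development.

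Each library held 32699024 to 45613685 reads assigned to genes, of which 47259 of 240689398 over the 6 libraries fell on Hox genes. Levels are normalized counts, that is, reads divided by a size factor of the library, and 3 reads corresponded to 2.57 to 3.46 normalized counts. KO1 and WT1 stood apart from the other 4 libraries. Across 15229 genes, the correlation of log2 levels was 0.978 to 0.990 between libraries on the same side of this split and 0.908 to 0.935 across it. KO1 with WT1 is called the first set here and KO2, KO3, KO4 with WT2 the second. The labels name 2 cohorts of mice but tie no library to either. Zmpste24 itself had 5079, 3764, 3599 and 3720 normalized counts in KO1 to KO4, against 5503 and 4148 in WT1 and WT2, and with the deleted stretch unknown this level is no check of the label. All 20 endothelial markers were expressed, but the 15 fibroblast markers summed to 415730 to 498129 normalized counts in KO libraries and 451506 to 497232 in WT libraries, above the sum of the endothelial ones in every library. The collagen genes Col1a1, Col1a2 and Col3a1 were the largest parts of the fibroblast sum in every library, at 132850, 168691 and 70028 normalized counts in KO1. The comparison of these sums therefore rests largely on a few genes. In bulk RNA of this kind, fewer cells of a type and less RNA per cell cannot be told apart.

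The cultures carried a Hox combination dominated by the low and middle numbers of HoxA and HoxB. Markers of several cell types were expressed, and which of these cells the Hox RNA came from was not tested. Of the 39 genes, 23 averaged 10 normalized counts or more across all libraries, the level required for testing, and 15 had a mean of at least 100. These 23 were 8 of 11 HoxA genes, the last of them Hoxa9, 8 of 10 HoxB genes (Hoxb2 to Hoxb9), 4 of 9 HoxC genes (Hoxc4, Hoxc5, Hoxc6 and Hoxc13) and 3 of 9 HoxD genes (Hoxd8, Hoxd9 and Hoxd10). Another 12 had reads but a lower mean, and Hoxc11, Hoxc12, Hoxd1 and Hoxd12 had 0 reads in all 6 libraries. Just inside the limit was Hoxa9, with a mean of 12.6 normalized counts, and just outside it were Hoxd4, with 8.58, and Hoxa10, with 5.71. Summed over all members, Hox genes reached 6703, 8504, 7707 and 8101 normalized counts in KO1 to KO4, against 7479 and 8359 in WT1 and WT2, so the total lay in the same range in both genotypes.

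**Figure D1:**
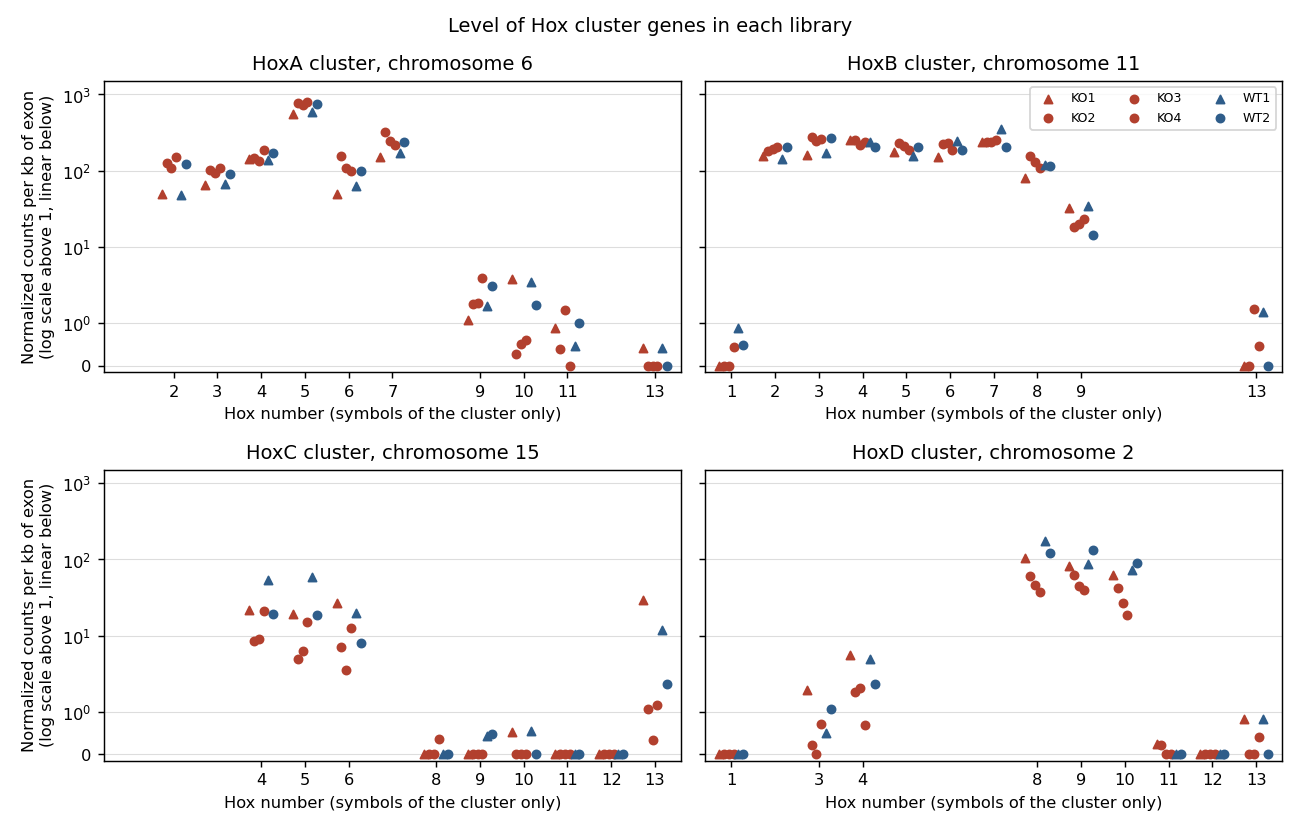
Level of the Hox genes in each library, with normalized counts per kb of exon on an axis that is logarithmic above 1 and linear below, 1 panel per cluster and the Hox number along the bottom. KO libraries (red) stand left of WT libraries (blue), with triangles for KO1 and WT1. HoxA is filled up to number 7 and HoxB from Hoxb2 to Hoxb9, with Hoxb1 near 0. HoxD holds a block at Hoxd8 to Hoxd10, and HoxC is low throughout.

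Per kb of exon, the level that allows genes to be set side by side, Hoxa5 stood above every other member in every library. Hoxa5, whose loss in mice malforms the trachea and lung, averaged 700 ± 100.2 normalized counts per kb (SD over 6 libraries). It was followed by Hoxb7 at 255 ± 51.8, Hoxb4 at 233 ± 19.3, Hoxb3 at 230 ± 50.6 and Hoxa7 at 224 ± 60.4 normalized counts per kb. These 4 did not differ from each other beyond their spread over libraries. Below them came Hoxb6 (204 normalized counts per kb), Hoxb5 (195), Hoxb2 (179), Hoxa4 (154), Hoxb8 (118) and Hoxa2 (101). The highest member outside HoxA and HoxB was Hoxd8 at 90.2 normalized counts per kb, and the highest of HoxC was Hoxc4 at 22.2. Some annotated exons overlap those of neighbours, by over 20% of the exon length in 7 members, among them Hoxb3 (52.9%), Hoxb2 (27.3%), Hoxa3 (27.1%) and Hoxa7 (20.4%), mostly with antisense RNAs. The sources do not state if the authors' counting was stranded, so the levels of these genes are uncertain; Hoxa5, Hoxb4, Hoxb6, Hoxb7, Hoxd8 and Hoxd9 share no exon.

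Split by cluster, HoxA held 47.1% ± 4.15 of the summed per-kb level in KO libraries (SD, n = 4) and 42.4% ± 6.66 in WT libraries (SD, n = 2), and HoxB held 46.0% ± 1.34 in KO libraries and 44.0% ± 3.96 in WT libraries. HoxC held 1.59% ± 1.39 in KO libraries and 3.06% ± 2.28 in WT libraries. HoxD was the cluster whose shares did not overlap between genotypes: 9.44%, 4.88%, 3.83% and 2.96% in KO1 to KO4, against 10.9% and 10.3% in WT1 and WT2. KO1 lay close to the WT libraries in this share, and the other 3 KO libraries lay well below. Shares of a total are tied to each other, so a lower HoxD share raises the others.

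**Figure D2:**
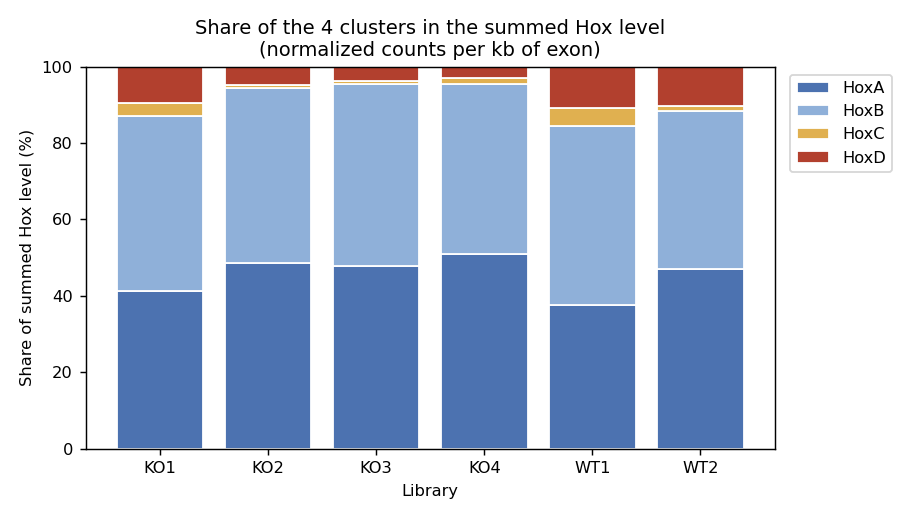
Share of each cluster in the summed Hox level (normalized counts per kb of exon) as stacked bars, in percent, for the 4 KO libraries at the left and the 2 WT libraries at the right. HoxA and HoxB together take most of every bar, and the HoxD segment runs from 2.96% to 9.44% in KO libraries and from 10.3% to 10.9% in WT libraries.

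By number, groups 4 to 8 held 73.4% ± 1.48 of the per-kb level in KO libraries (SD, n = 4) and 72.9% ± 5.30 in WT libraries (SD, n = 2). Groups 1 to 3 held 22.3% ± 2.30 in KO libraries and 20.02% ± 5.02 in WT libraries. Groups 9 to 13, the posterior end of the code, held 7.89%, 3.68%, 3.13% and 2.68% in KO1 to KO4, against 6.90% and 7.30% in WT1 and WT2, with KO1 above both WT libraries. Group 5 alone, the paralogs Hoxa5, Hoxb5 and Hoxc5, held between 26.0% and 30.5% in every library.

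Genes past number 9 were nearly silent outside HoxD. Hoxa10, which patterns the uterus and hindlimb, had 12.3, 0.912, 1.71 and 2.02 normalized counts in KO1 to KO4, against 11.5 and 5.76 in WT1 and WT2, and was highest in the 2 libraries of the first set. Hoxa11, Hoxb13 and Hoxd13 reached at most 3.43, 3.43 and 2.09 normalized counts in any library, and Hoxa13, Hoxc10 and Hoxd11 had 2 reads each in all libraries together. Hoxb1, a hindbrain gene at the anterior end, had 4 reads in all. Hoxc8 had 1 read and Hoxc9 had 2, between the expressed Hoxc6 and the silent end of that cluster. Hoxd3 and Hoxd4 share more than 50% of their exon length with each other and the predicted gene Gm28230, so their low counts are uncertain. Hoxc13, known for its part in hair and nail keratin expression, was the exception at the posterior end, with 72.9, 2.74, 0.857 and 3.03 normalized counts in KO1 to KO4, against 29.3 and 5.76 in WT1 and WT2. It was high in both libraries of the first set and at or near the level of 3 reads in the KO libraries of the second.

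The comparison between genotypes asks whether the loss of Zmpste24 went with another Hox combination. Differences are given as log2(normalized count + 1), KO minus WT, from limma fitted over all 15229 genes of mean at least 10, with Benjamini-Hochberg adjustment at 0.05. No Hox gene was called: 0 of 23 rose, where the background over all genes was 0.00657%, and 0 of 23 fell, where the background was 0%. At an unadjusted p under 0.05, limma gave 2 of the 23 members, and 143 of all genes. edgeR's quasi-likelihood test likewise called 0 of 23 either way, against 0.00657% of all genes. DESeq2 called 0 of 23 higher, against 0.0328% of all genes, and 0 lower, against 0.0131% (0.046% either way). With the library set added as a term, limma and edgeR again called 0 of 23, against 0.00657% and 0.0131% of all genes either way, and limma had 2 of 23 members and 535 of all 15229 genes at an unadjusted p under 0.05. DESeq2 with that term called 0 of 23 higher, against 0.0722% of all genes, and 0 lower, against 0.256% (0.328% either way). The median log2 difference over the 23 members was -0.03 from genotype alone and -0.07 in the fit that includes the set, beside 0.00 and 0.00 over all genes tested.

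Groups of the 4 KO and 2 WT libraries did not overlap for 3 of 23 members (13.04%), all lower in KO, where 2.32% of all genes tested lay that way. These were Hoxd8, Hoxd9 and Hoxd10, the tested genes of HoxD. No member had all KO libraries above both WT libraries, beside 2.36% of all genes, and 4.68% of all genes were apart in either direction.

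**Figure D3:**
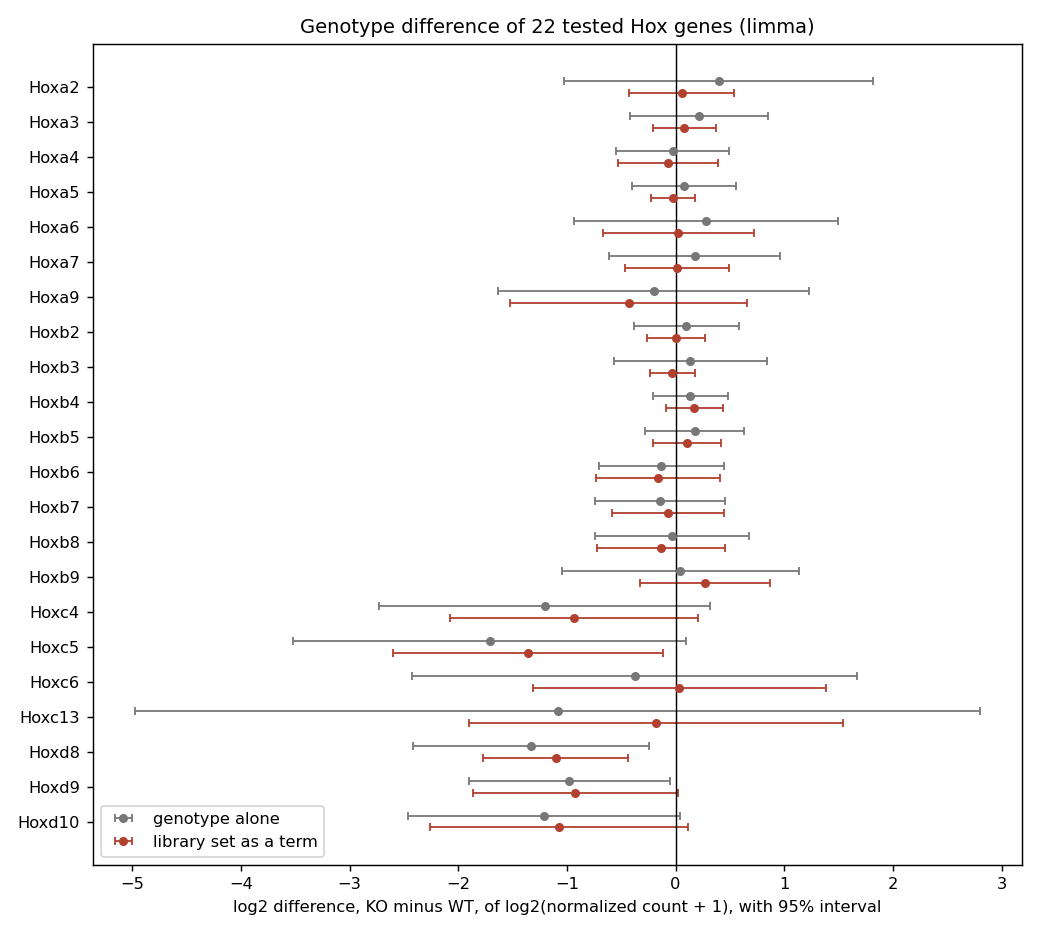
Log2 difference, KO minus WT, of 22 tested Hox genes with 95% confidence intervals from limma, from genotype alone and from the fit that includes the library set. HoxA and HoxB genes lie between -0.43 and 0.27 once the set is a term, with intervals within -1 to 1 for 14 of them. In the same fit Hoxd8, Hoxd9, Hoxd10, Hoxc4 and Hoxc5 lie between -1.36 and -0.92.

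No tested HoxA or HoxB gene separated the genotypes, and the estimated differences were small in most of them. With the set as a term, the log2 difference was between -0.43 and 0.27 for all 16 tested genes of these clusters, and for 14 of them the 95% interval lay within -1 to 1. Hoxa5 had 1042, 1441, 1373 and 1497 normalized counts in KO1 to KO4, against 1114 and 1413 in WT1 and WT2. The first set is low in both genotypes, and within each set KO and WT lay close. Its log2 difference was -0.02 ± 0.08 (SE; 95% interval -0.22 to 0.17) with the set as a term and 0.08 ± 0.19 without. Hoxb3, reported to promote capillary morphogenesis in chick and cultured human endothelium, had 693, 1170, 1057 and 1109 normalized counts in KO1 to KO4, against 716 and 1126 in WT1 and WT2. Its log2 difference with the set as a term was -0.03 ± 0.08 (SE; 95% interval -0.24 to 0.18). Hoxb2, a hindbrain segment gene, had 543, 630, 663 and 708 normalized counts in KO1 to KO4, against 496 and 704 in WT1 and WT2. Its log2 difference in the fit with the set was 0.00 ± 0.11 (SE).

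Hoxa3, which patterns thymus and parathyroid and has been studied in wound angiogenesis of mice, had 389, 615, 566 and 649 normalized counts in KO1 to KO4, against 406 and 539 in WT1 and WT2. Hoxa7 had 439, 923, 712 and 619 normalized counts in KO1 to KO4, against 489 and 677 in WT1 and WT2. Hoxb5, a lung branching gene that activates Kdr in endothelial precursors, had 497, 645, 587 and 524 normalized counts in KO1 to KO4, against 436 and 566 in WT1 and WT2. In all 3, KO1 and WT1 were the lowest libraries and the genotypes overlapped. The same order, with KO1 and WT1 below the other 4, was found in 9 of 23 members (Hoxa2, Hoxa3, Hoxa5, Hoxa6, Hoxa7, Hoxa9, Hoxb2, Hoxb3 and Hoxb5; 39.1%), where 32.7% of all genes tested show it. The opposite order was found in 5 of 23 (Hoxb9, Hoxc4, Hoxc5, Hoxc6 and Hoxc13; 21.7%), where 30.7% of all genes show it. Both shares lie near their backgrounds. The members low in the first set were all HoxA or HoxB genes, as were 16 of the 23 members tested. Those high in it were the tested HoxC genes and Hoxb9.

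Hoxb4, a gene known for expanding blood stem cells, varied least, relative to its mean, of the 12 most abundant members. It had 649, 648, 564 and 607 normalized counts in KO1 to KO4, against 603 and 521 in WT1 and WT2, or 617 ± 40.4 in KO (SD, n = 4) and 562 ± 58.2 in WT (SD, n = 2). It was the single member with each KO library above the WT library of its own set, a pattern of 10.1% of all genes, with a log2 difference of 0.17 ± 0.10 (SE; 95% interval -0.09 to 0.43) with the set as a term and an adjusted p of 0.999 by limma. Hoxb6 had 299.9, 436, 453 and 364 normalized counts in KO1 to KO4, against 481 and 366 in WT1 and WT2, and Hoxb7 had 368, 372, 366 and 396 in KO1 to KO4, against 548 and 313 in WT1 and WT2. In both, WT1 was the highest library and WT2 was within or below the KO range. Hoxb8, which holds myeloid progenitors in an undifferentiated state when overexpressed, had 211, 410, 339 and 286 normalized counts in KO1 to KO4, against 312 and 306 in WT1 and WT2, and Hoxa4 had 229, 234, 213 and 299 in KO1 to KO4, against 223 and 272 in WT1 and WT2. Hoxa2, Hoxa6, Hoxa9 and Hoxb9 also overlapped between genotypes, and the widest interval among them was that of Hoxa9 (-1.52 to 0.66 with the set as a term), which rests on 6.16 to 22.2 normalized counts.

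Among the tested members, the HoxD genes were those that separated the libraries by genotype. Hoxd8, Hoxd9 and Hoxd10 are neighbours on the plus strand of chromosome 2 (GRCm38, GENCODE M21), Hoxd10 at chr2:74691924-74695105, Hoxd9 at chr2:74697727-74700208 and Hoxd8 at chr2:74704615-74707933. In cultured human lymphatic endothelium and in mouse, Hoxd8 has been reported to raise angiopoietin 2 and to maintain Prox1, the lymphatic identity factor. Hoxd10, with Hoxd9 a patterning gene of limb and lumbar spinal cord, has been reported to hold cultured human endothelial cells in a quiescent state. Because these neighbours showed the same order of genotypes, the 250 bases before each RefSeq transcription start (GRCm38.p6) are shown, with that of Hoxa5, the most abundant member, for contrast. Capitals mark matches to the letters AGGTCA (a core of nuclear receptor sites) or CCAAT (the CCAAT box), on either strand, so that TGACCT and ATTGG mark the same letters on the other strand.

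Hoxd8: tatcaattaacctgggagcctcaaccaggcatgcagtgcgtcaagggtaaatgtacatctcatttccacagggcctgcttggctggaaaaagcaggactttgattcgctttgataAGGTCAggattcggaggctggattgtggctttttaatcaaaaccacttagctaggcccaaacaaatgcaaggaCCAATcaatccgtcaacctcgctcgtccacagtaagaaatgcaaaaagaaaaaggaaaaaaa
Hoxd9: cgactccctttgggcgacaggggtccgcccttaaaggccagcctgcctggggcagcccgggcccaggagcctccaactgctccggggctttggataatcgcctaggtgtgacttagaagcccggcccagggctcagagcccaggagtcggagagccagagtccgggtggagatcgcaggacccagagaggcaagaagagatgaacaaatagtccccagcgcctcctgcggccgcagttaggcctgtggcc
Hoxd10: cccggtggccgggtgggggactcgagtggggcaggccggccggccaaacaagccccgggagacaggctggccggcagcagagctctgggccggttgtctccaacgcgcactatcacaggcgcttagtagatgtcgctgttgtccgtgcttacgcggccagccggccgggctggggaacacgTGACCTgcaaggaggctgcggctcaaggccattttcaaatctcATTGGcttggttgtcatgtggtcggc
Hoxa5: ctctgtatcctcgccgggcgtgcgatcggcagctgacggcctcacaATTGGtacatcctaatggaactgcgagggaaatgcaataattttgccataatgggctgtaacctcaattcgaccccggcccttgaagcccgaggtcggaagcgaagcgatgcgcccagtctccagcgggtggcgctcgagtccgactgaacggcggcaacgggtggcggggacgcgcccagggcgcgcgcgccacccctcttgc

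These windows lie at chr2:74704365-74704614, chr2:74697513-74697762 and chr2:74691641-74691890 on the plus strand and, for Hoxa5, at chr6:52204588-52204837 on the minus strand. The Hoxd8 window held AGGTCA from 135 to 130 bases before the start and CCAAT from 62 to 58 bases before it, and Hoxd10 held both on the other strand, at 69 to 64 and 26 to 22 bases before its start. Hoxd9 held neither, and Hoxa5 held the CCAAT letters alone, 204 to 200 bases before the start. The window of Hoxb4, which is not shown and whose genotypes overlapped, held AGGTCA on the other strand, 81 to 76 bases before its start. Among all 32851 RefSeq windows of this length, 14.0% held AGGTCA and 33.8% held CCAAT. Of the 24 windows of 22 Hox genes, 6 held AGGTCA and 14 held CCAAT. Searches for the Hox and Pbx composite TGATNNAT, the homeodomain core TAATTA and TATAAA, which are in 7.68%, 4.84% and 12.4% of all windows, matched none of the 4 windows shown. The Hoxd8 window had 44.4% G and C, against 65.2% for Hoxd9, 65.6% for Hoxd10 and 63.6% for Hoxa5, and none of the motifs searched was present in the windows of all 3 HoxD neighbours.

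Hoxd8 had 286, 167, 125 and 102 normalized counts in KO1 to KO4, against 474 and 331 in WT1 and WT2. Every KO library was below both WT libraries, and within each set the KO libraries were below their WT library. The means were 170 ± 81.7 in KO (SD, n = 4) and 402 ± 101 in WT (SD, n = 2). The log2 difference was -1.33 ± 0.44 (SE; 95% interval -2.42 to -0.24) and, with the set as a term, -1.105 ± 0.26 (SE; 95% interval -1.77 to -0.44). It did not pass the threshold, at an adjusted p of 1.00 by limma, 0.999 by limma with the set as a term and 0.0831 by DESeq2 with the set as a term, the lowest of any setting.

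Hoxd9 had 177, 132, 95.2 and 83.8 normalized counts in KO1 to KO4, against 186 and 287 in WT1 and WT2. KO1 lay just under WT1, and the 3 KO libraries of the second set lay well under WT2. Its means were 122 ± 41.9 in KO (SD, n = 4) and 237 ± 71.1 in WT (SD, n = 2), with a log2 difference of -0.98 ± 0.38 (SE; 95% interval -1.90 to -0.05; adjusted p 1.00 by limma). With the set as a term it was -0.92 ± 0.38 (SE), with a 95% interval of -1.87 to 0.02 that includes 0. Hoxd10 had 115, 77.6, 48.9 and 34.3 normalized counts in KO1 to KO4, against 131 and 162 in WT1 and WT2, or 69.0 ± 35.6 in KO (SD, n = 4) and 147 ± 22.3 in WT (SD, n = 2). The groups again did not overlap, and KO1 was closest to the WT libraries. Its log2 difference was -1.21 ± 0.51 (SE; 95% interval -2.47 to 0.04; adjusted p 1.00 by limma), and -1.07 ± 0.47 (SE; 95% interval -2.26 to 0.12) with the set as a term.

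The size of the HoxD difference was uneven between the sets. Between KO1 and WT1 the log2 difference was -0.73 for Hoxd8, -0.08 for Hoxd9 and -0.18 for Hoxd10. Between the second set's KO2, KO3 and KO4 and its WT2, it was -0.98, -1.39 and -1.69 for Hoxd8. For Hoxd9 it was -1.11, -1.58 and -1.76, and for Hoxd10 -1.06, -1.71 and -2.21. The second set has a single WT library, so its differences all rest on WT2.

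**Figure D4:**
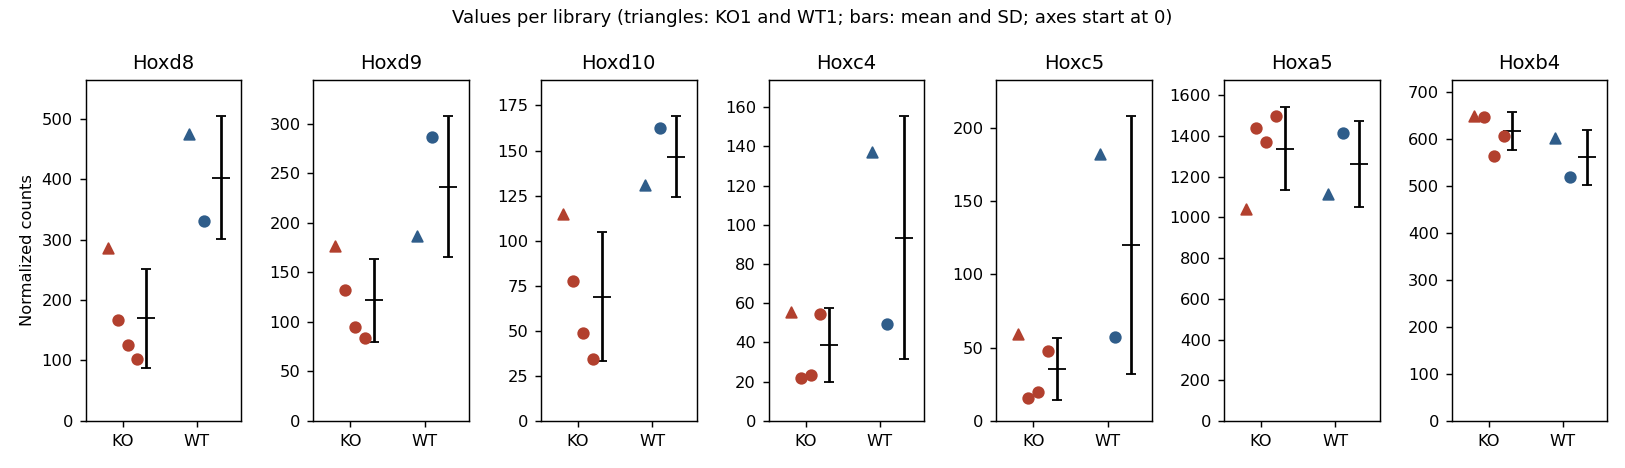
Normalized counts of Hoxd8, Hoxd9, Hoxd10, Hoxc4, Hoxc5, Hoxa5 and Hoxb4 in each library, on axes from 0, with KO (red) left of WT (blue), triangles for KO1 and WT1, and bars for the mean and SD. For the 3 HoxD genes every KO point lies below both WT points, while for Hoxc4 and Hoxc5 WT1 stands above all other libraries and for Hoxa5 and Hoxb4 the genotypes overlap.

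HoxC genes were low, and their highest library was WT1 for Hoxc4 and Hoxc5. Hoxc5 had 59.6, 15.5, 19.7 and 47.4 normalized counts in KO1 to KO4, against 182 and 57.6 in WT1 and WT2. KO1 was slightly above WT2, so the groups overlapped, but each KO library was below the WT library of its own set. That last pattern was found in 4 of 23 members (Hoxc5, Hoxd8, Hoxd9 and Hoxd10; 17.4%), where 10.8% of all genes tested show it. The log2 difference of Hoxc5 was -1.71 ± 0.74 (SE; 95% interval -3.52 to 0.10; adjusted p 1.00 by limma) and -1.36 ± 0.49 (SE; 95% interval -2.60 to -0.12; adjusted p 0.999 by limma) with the set as a term. Without WT1 it was -0.89.

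Hoxc4, a gene active in lymphocytes as well as in the trunk, had 55.5, 21.9, 23.1 and 54.5 normalized counts in KO1 to KO4, against 137 and 49.5 in WT1 and WT2. KO4 was above WT2, and its log2 difference with the set as a term was -0.93 ± 0.45 (SE; 95% interval -2.07 to 0.21). Hoxc6 had 64.7, 17.3, 8.57 and 30.3 normalized counts in KO1 to KO4, against 48.2 and 19.6 in WT1 and WT2, with no separation by genotype and an estimate of 0.03 ± 0.54 (log2, SE) in the fit with the set. The median log2 difference with the set as a term was -0.55 for the 4 HoxC genes and -1.07 for the 3 HoxD genes, against 0.00 for the 8 HoxA genes, -0.01 for the 8 HoxB genes and 0.00 for all genes.

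Lymphatic endothelial markers were lower in sum in every KO library than in either WT library, though KO1 lay just under WT2. The 12 lymphatic endothelial markers, a list chosen after the values were known, summed to 71255, 47115, 41318 and 39431 normalized counts in KO1 to KO4, against 91034 and 71738 in WT1 and WT2, with Ccl21a at 0 in every library. Of the 11 tested, 8 had a lower and 3 a higher fitted level in KO with the set as a term. Of all 15229 genes, 7721 were lower and 7508 higher in that fit. Every KO library was below both WT libraries in 5 of the 11, where 2.32% of all genes lay that way, and DESeq2 with the set as a term called 2 lower, where it called 0.256% of all genes. Flt4, the receptor of lymphatic growth factors, had 10272, 5307, 4404 and 3648 normalized counts in KO1 to KO4, against 16041 and 10497 in WT1 and WT2. Prox1 had 1703, 725, 636 and 657 normalized counts in KO1 to KO4, against 1792 and 1899 in WT1 and WT2, and limma gave it -0.93 ± 0.31 (SE) with the set as a term. In both, as in Hoxd8, KO1 was the KO library nearest to WT. Sema3d and Maf, also on the list, averaged 2232 and 3590 normalized counts in KO, against 1594 and 3041 in WT. The 20 endothelial markers, with none at 0, summed to 152704, 87234, 75272 and 54629 normalized counts in KO1 to KO4, against 256226 and 90237 in WT1 and WT2. These sums overlapped between genotypes. With the set as a term, 19 of the 20 had a lower fitted level in KO, beside 7721 of all 15229 genes. The median log2 difference of the 20 was -0.49, beside 0.00 over all genes. Of the 20, 9 were at an unadjusted limma p under 0.05 in that fit, beside 535 of 15229 genes. DESeq2 with the set as a term called 3 of them lower, where it called 0.256% of all genes. The marker sums of the other cell types overlapped between genotypes and differed between the sets. They were 58319 to 214842 in KO and 64037 to 234945 in WT for 10 smooth muscle markers. For 10 mesothelial markers they were 12105 to 88427 in KO and 24271 to 39784 in WT. For 14 macrophage and leukocyte markers they were 4266 to 48719 in KO and 5254 to 35234 in WT. Single genes could still stand apart, as 4.68% of all genes did in either direction. Rgs5, on the smooth muscle list, had 60.6 to 776 normalized counts in KO, above 36.6 and 41.5 in WT1 and WT2. Cd14, on the macrophage list, had 1498 to 2820 in KO, below 3559 and 4672 in WT1 and WT2. None of the genes in these 3 lists was at 0 in all libraries. The part of these marker levels in the Hox differences was not tested.

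Of 12 genes reported in the literature as targets of Hox proteins in endothelium, 10 had a lower and 2 a higher fitted level in KO with the set as a term. Of all 15229 genes, 7721 were lower and 7508 higher in that fit. The median log2 difference of the 12 was -0.29, beside 0.00 over all genes. Limma called 0 of them in that fit, with 4 at an unadjusted p under 0.05, beside 535 of 15229 genes, and DESeq2 with the set as a term called 1 lower, where it called 0.256% of all genes. This was Angpt2, angiopoietin 2, with 15504, 9494, 9118 and 8461 normalized counts in KO1 to KO4, against 21569 and 22699 in WT1 and WT2. All KO libraries were below both WT libraries, as in 2.32% of all genes. With the set as a term, Angpt2 had a limma estimate of -0.99 ± 0.20 on the log2 scale (SE) and an adjusted p of 0.00651 by DESeq2. Cdh5, the endothelial cadherin, had 33414, 22282, 18996 and 13135 normalized counts in KO1 to KO4, against 62133 and 18632 in WT1 and WT2, and Itga5 and Ctnnb1, the other abundant genes of the list, were highest in KO1 and WT1. Some of these targets are endothelial markers themselves, Kdr among them.

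The partners and regulators of the clusters were expressed and none was called. All 11 cofactor genes of the TALE homeodomain class were tested, with a median log2 difference of -0.02 with the set as a term and 0 called by limma, edgeR or DESeq2, of which limma had 0 at an unadjusted p under 0.05. Meis1, a partner of Hox proteins on DNA, had 1176, 3217, 2955 and 3241 normalized counts in KO1 to KO4, against 1352 and 2937 in WT1 and WT2. It was low in the first set, like Hoxa2 and Hoxa3, and overlapped between genotypes. Meis2 ran from 1740 to 2593 normalized counts in KO and from 2167 to 2584 in WT, and Tgif1 from 3037 to 3424 in KO and from 3455 to 3864 in WT, without overlap.

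Of 42 Polycomb and trithorax genes, which silence Hox clusters or keep them active, 41 were tested, 0 were called by the 3 tools and 0 had an unadjusted limma p under 0.05, with a median log2 difference of -0.02 with the set as a term. Kmt2a, the trithorax-type methyltransferase that maintains Hox expression, had 5375, 6440, 6119 and 6472 normalized counts in KO1 to KO4, against 5506 and 6355 in WT1 and WT2, or -0.02 ± 0.06 (log2 difference, SE) in the fit with the set. Rbbp4, Rbbp7 and Cbx6, the other abundant members, had log2 differences of 0.01 to 0.04 with the set as a term.

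Of 21 genes of the retinoic acid pathway, which induces anterior Hox genes in the embryo, 16 were tested, 0 were called by the 3 tools and 0 had an unadjusted limma p under 0.05, with a median of -0.02 in the fit with the set. Aldh1a1, a retinaldehyde dehydrogenase, was the most abundant, with 30005, 52021, 40220 and 32383 normalized counts in KO1 to KO4, against 13989 and 33113 in WT1 and WT2. KO4 was below WT2, and the log2 difference was 0.62 ± 0.26 (SE; 95% interval -0.04 to 1.28) with the set as a term. Rxra and Rarg, receptors of the pathway, overlapped between genotypes. The 8 Cdx, ParaHox and Evx genes were not expressed, since no library exceeded 2.09 normalized counts over all of them and Cdx2, Cdx4, Pdx1, Evx1 and Evx2 had 0 reads.

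Of 22 factors that mark position in the lung and foregut, 18 were tested, 0 were called by the 3 tools and 1 had an unadjusted limma p under 0.05 in the fit with the set, beside 535 of 15229 genes, where the list's median was 0.11. Tbx4, the lung mesenchyme T-box gene, had 1273, 12109, 8851 and 4885 normalized counts in KO1 to KO4, against 987 and 5422 in WT1 and WT2. It was low in both libraries of the first set, and so were Tbx2 and Osr1. Gata6 ran from 3394 to 5840 normalized counts in KO libraries and from 3280 to 5273 in WT libraries.

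Noncoding genes inside the clusters were weakly expressed. Of 25 listed, 17 were in the table and 7 were tested, with 0 called by the 3 tools, 1 at an unadjusted limma p under 0.05 in the fit with the set, beside 535 of 15229 genes, and a list median of -0.11 there. Hotair, Hottip and 4 of the microRNA genes had 0 reads, although poly(A) libraries capture few microRNA precursors. Hoxb5os, antisense in HoxB, had 61.6, 169, 123 and 96.9 normalized counts in KO1 to KO4, against 54.4 and 79.5 in WT1 and WT2. Hoxd3os1, antisense to Hoxd3 and Hoxd4, had 11.3, 10.04, 4.29 and 7.07 normalized counts in KO1 to KO4, against 30.4 and 13.8 in WT1 and WT2. Its groups did not overlap, in the same direction as Hoxd8, Hoxd9 and Hoxd10. It was 1 of the 7 tested with KO lower in this way, beside 2.32% of all genes. From genotype alone, limma gave a log2 difference of -1.31 ± 0.55 (SE; adjusted p 1.00). In that fit 0 of the 7 had an unadjusted p under 0.05. Hoxd3os1 had 5 to 29 reads per library, and its annotated span (chr2:74703248-74716130) also covers Hoxd8, so it is not a separate locus. Hotairm1, Hoxaas2 and Hoxb3os overlapped between genotypes. Of the genes that flank the clusters, 17 were tested, 0 were called by the 3 tools and 0 had an unadjusted limma p under 0.05, with a median of 0.00 in the fit with the set. The most abundant of them, Nfe2l1, Tax1bp1, Ube2z and Atp5g3, overlapped between genotypes. Mtx2 and Lnpk, on the flanks of HoxD, had 1618 to 1929 and 508 to 820 normalized counts in KO libraries and 1760 to 1807 and 514 to 591 in WT libraries. Their 95% intervals in the fit with the set were -0.22 to 0.21 for Mtx2 and -0.43 to 0.56 for Lnpk, against -1.77 to -0.44 for Hoxd8.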

How the data were processed

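RNA of 6 libraries, 4 labelled KO and 2 labelled WT, was analysed from the table the authors deposited. Its values are a normalized count signal in which the authors scaled each library's read counts by its size factor. The submitters' processing notes list Trimmomatic 0.36, STAR 2.6.0c, Subread 1.6.1 with featureCounts, and the build GRCm38.p6; the design text of the series lists other versions and HTSeq, and the sources do not say which of them produced the table. Whole reads were recovered from the deposited counts for 100% of values, within 1e-06 of a read. The 15229 genes averaging 10 normalized counts or more were tested with limma 3.58.1 in R 4.3.3 on log2(normalized count + 1), with a mean trend and genotype as the sole term, which understates the change of low genes. At that level, counting error by itself is 31.6% of the mean. edgeR 4.0.16 and DESeq2 1.42.0 on recovered reads, other pseudocounts, filters and scalings, no trend, array weights, the replicate block, the library set as a term, the second set alone and leaving out each library were the alternatives. Scripts were tested on simulated data. Every pair of libraries of 1 genotype differed by more than sampling noise (chi-square per gene 28.4 to 438).

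The members, the gene lists and the library sets were chosen with earlier results of these data known. The rule for named genes took the 12 tested members of highest mean, any called member, the members at 0 and those nearest the limit, and from each list the called members and up to 4 of highest mean; of the marker lists, sums are given and single genes where they stand beside a Hox result; a few genes that the rule took are not reported here. The other members given in every library (Hoxd9, Hoxd10, Hoxc4, Hoxc5, Hoxc6, Hoxc13 and Hoxa10), and Hoxd3os1, Mtx2, Lnpk, Flt4 and Prox1, were named after their values were seen. Exon lengths and positions are from GENCODE M21 (39 of 39 members matched), promoter windows from RefSeq (22 members matched).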

Additional observations from a re-analysis of the deposited data

Results flagged for a closer look

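In 7 of 51 genes examined, 22 of them Hox genes, KO1 lay farther from the other KO libraries than Dixon's test allows at the 95% level for 4 samples. Chance gives about 1 gene in 20 with any of the 4 KO libraries apart in this way, and fewer with KO1 apart. Over all 15229 genes tested KO1 stood apart in 12.3%, so the 7 lie near the background of this library. The single Hox gene among them was Hoxc13, with 72.9 normalized counts in KO1, against 0.857 to 3.03 in the other KO libraries. Among the cofactors, Meis1 was low in KO1, at 1176 normalized counts against 2955 to 3241. Among reported Hox targets, KO1 was high in Itga5 (78707 normalized counts, against 29181 to 33162), in Ctnnb1 (37917, against 29119 to 29941) and in Angpt2 (15504, against 8461 to 9494). Prox1 was high in KO1 at 1703 normalized counts, against 636 to 725, and Zmpste24 at 5079, against 3599 to 3764. WT1, which shares the first set with KO1, had 29.3 normalized counts of Hoxc13, 1352 of Meis1 and 1792 of Prox1. WT2, of the second set, had 5.76, 2937 and 1899, so Prox1 was not higher in WT1 than in WT2. The part of the library set in these values was not tested.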

How the results depend on the processing

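No Hox gene was called in either direction under any setting run (0 of the tested members each time). Hoxd8, Hoxd9, Hoxd10, Hoxc4, Hoxc5, Hoxa3 and Hoxb4 kept their sign under all settings, and 15 tested members changed sign in at least 1. Hoxd8 ran from -1.63 to -0.86, Hoxd9 from -1.49 to -0.59, Hoxd10 from -1.66 to -0.62, Hoxc5 from -2.53 to -0.89 and Hoxc4 from -1.93 to -0.48. The median over tested Hox genes, -0.03, was -0.14 with array weights and -0.14 to 0.033 when leaving out each library in turn. Over all genes, the 1 gene called higher became 5 with DESeq2, 11 with DESeq2 and the set as a term, 0 with the replicate block and 0 in the second set alone, and 0 to 1 when leaving out each library. The 0 called lower became 1 with a pseudocount of 5, 1 with array weights, 2 with DESeq2, 1 with edgeR and the set as a term, 39 with DESeq2 and the set as a term, and 0 to 1 when leaving out each library. DESeq2 with the set as a term also called Angpt2 (-1.002, adjusted p 0.00651) and Flt4 (-1.01, adjusted p 0.00809). In the second set alone, Hoxb6 turned to 0.18, Hoxb7 to 0.27 and Gata6 to -0.35, and array weights gave Gata6 -0.25. Leaving out each library in turn, the log2 difference ran from -0.28 to 1.07 for Hoxa2, -0.15 to 0.35 for Hoxb2, -0.19 to 0.46 for Hoxb3, -0.013 to 0.36 for Hoxb5, -0.54 to 0.26 for Hoxb7, -0.57 to 0.66 for Hoxb9, -0.26 to 0.86 for Meis1, -0.10 to 0.29 for Rbbp4, -0.094 to 2.36 for Tbx4, -0.24 to 0.45 for Gata6, -0.71 to 1.61 for Osr1, -0.35 to 0.41 for Hoxb3os, -0.30 to 0.027 for Ube2z, -0.25 to 0.10 for Atp5g3, -1.05 to 0.10 for Itga5 and -1.58 to 0.16 for Cdh5. Of 1119 values of named genes under other settings, 1097 were counted as the same and 20 as reversed. Same means the same side of the threshold, with a change of sign by at most 1 SE of the main fit allowed. The cause of the reversals was not tested.

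KO1 with WT1 and KO2 with WT2 share a number that the labels do not explain. Over 15229 genes their deviations from the group means correlated at 0.841 for number 1 and 0.562 for number 2. Because there are only 2 WT libraries, the deviation of WT2 is that of WT1 with its sign turned. The value for number 2 is therefore no separate sign of a pair. With the replicate number as a block, KO3 and KO4 had no WT library of their number and did not enter the genotype estimate. In that fit Hoxd8 was -0.86, Hoxd9 -0.59 and Hoxd10 -0.62, and the median over tested Hox genes was -0.03. With 2 WT libraries, and 1 of them in each set, the design gives few degrees of freedom, and low members such as Hoxc13 and Hoxa9 carry large counting error.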
